A study of Homo sapiens with 6 samples.

Results

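ZNF469 occupancy was examined at 10 genes of heparan sulfate production. They were the exostosin genes EXT1, EXT2, EXTL1, EXTL2 and EXTL3 and the core protein genes SDC1, SDC2, SDC4, GPC1 and GPC6. The genes were chosen by the peak count that earlier work on these data had found in EXT1, so that count is given as a description and was not tested. Members were the deposited peak regions that overlapped a gene body, or the 50 kb on either side of it, by at least 1 bp. Of the 19108 regions of the full-length list, 48 met this rule, of which 37 lay in gene bodies and 11 in flanks. Of the 54 regions of the dZF list, 0 met it.

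The assay was CUT&RUN, in which a nuclease tethered to an antibody against ZNF469 releases the DNA it occupies. The cells were LX-2, an immortalized human hepatic stellate cell line, with a doxycycline-inducible piggyBac transgene. Stable lines were selected with puromycin per the series' design text and with Geneticin per the study's methods, and the sources used here do not settle which. One line, clone3.4 in the labels, expressed full-length human ZNF469, and the other, clone3.1, expressed ZNF469_dZF, from which most zinc fingers are deleted. Both groups received 1 ug/mL doxycycline for 24 h, and each comprised 3 libraries, which the authors combined into 1 peak list. The deposited lists hold no value per library, so no replicate error and no test between groups could be given here. Each construct was in its own line, so construct and line cannot be told apart, and no uninduced cells were analysed here. The lists hold no expression values against which the labelled cell line could be checked.

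Heparan sulfate is a sulfated sugar chain attached to core proteins at the cell surface and in the matrix. The chain is polymerized by a complex of EXT1 and EXT2 in the Golgi, while the EXTL proteins act in chain initiation and in setting chain length. The syndecans (SDC) are transmembrane core proteins and the glypicans (GPC) are held at the surface by a lipid anchor. Through their chains, these proteins bind growth factors, among them fibroblast and platelet-derived growth factors that act on stellate cells.

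EXT1 and its flanks held 22 of the 48 member regions, more than any other of the 10 genes. Its body contained 20 full-length regions, against 1 in the summed bodies of the other 4 exostosin genes and 16 in those of the 5 core protein genes. EXT1 made up 15.5% of the summed length of the 10 bodies, which was 2049 kb, and held 54.1% of the regions in them. GPC6 contained 13 regions, SDC4 contained 3 and EXTL2 contained 1. EXT2, EXTL1, EXTL3, SDC1, SDC2 and GPC1 had 0 regions in the body. Thus 4 of the 10 genes had a region in the body, against 33.7% of the 20007 protein-coding genes, and 8 of the 10 had one within 50 kb, against 65.1% of all genes. EXTL3 and SDC2 had 0 within 50 kb as well. A region in or near a gene was common throughout the genome, and these counts were not tested.

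**Figure D1:**
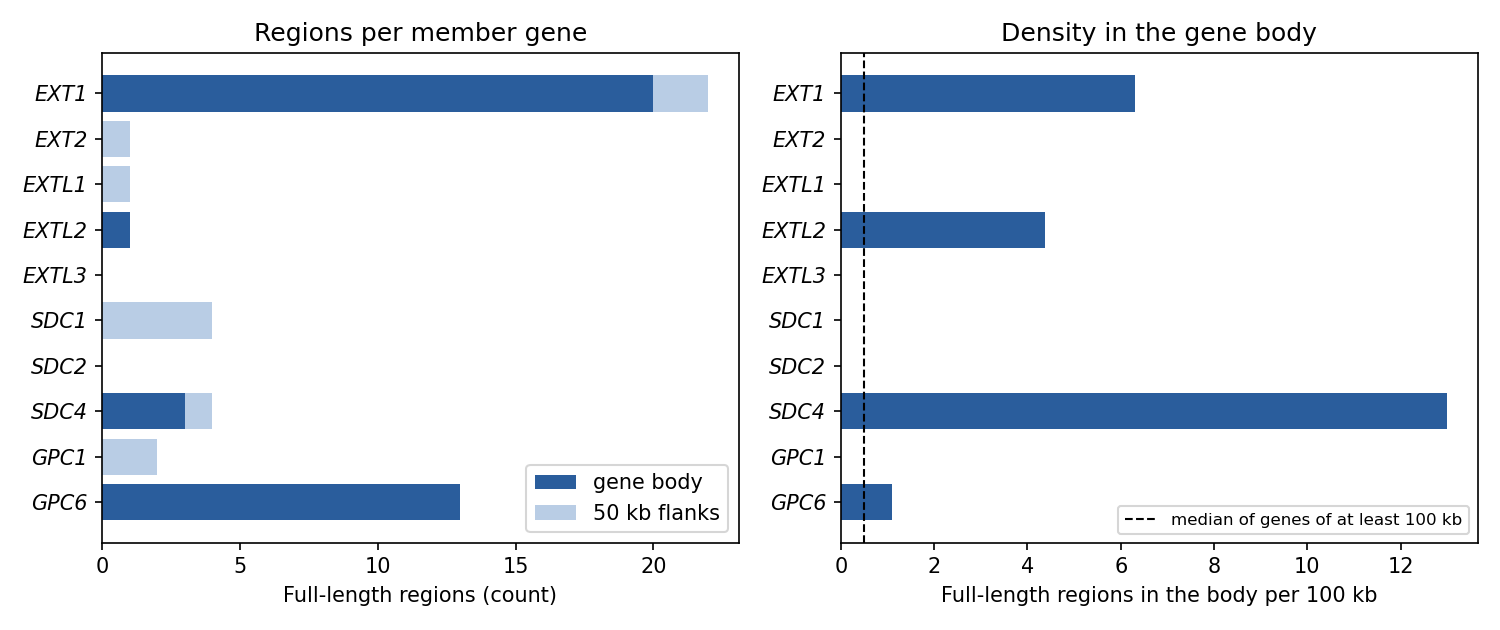
Left, number of full-length regions in the body (dark) and the 50 kb flanks (light) of each gene; right, regions in the body per 100 kb of gene length, with the median of genes of at least 100 kb as a dashed line. EXT1 had 20 regions in its body, and SDC4 had the highest density with 13 regions per 100 kb.

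Gene length differed widely between members, from 16.6 kb (EXTL1) to 1181 kb (GPC6), and the order of the genes changed once length was taken into account. SDC4, with 3 regions in 23.1 kb, had 13 regions per 100 kb. EXT1 had 6.3 per 100 kb, EXTL2 had 4.38 and GPC6 had 1.1. The median over the 3665 protein-coding genes of at least 100 kb was 0.505 per 100 kb, and 1426 of these genes had 0 regions. EXT1 ranked 12 among them by density, and GPC6 ranked 971. Only 7 of 20007 genes (0.035%) had as many regions as EXT1 or more, EXT1 included, which is the count the genes were chosen on. Among the 541 genes with a body of 254 to 397 kb, the median was 1 region. EXT1 ranked 1, followed by TRIO with 18 regions and LHFPL2 with 16.

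EXT1 spans chromosome 8 from 117794490 to 118111826 on the minus strand (hg38, 317 kb, 11 exons in the canonical transcript). The regions were nearly all in the long first intron. Intron 1, 273 kb in length and 86% of the body, held 19 of the 20 regions. The last region lay in intron 3, where it overlapped an exon of an alternative EXT1 transcript. Regions covered 10851 bp, or 3.42% of the body. Only 2 regions were within 3 kb of an annotated start. One was 2.76 kb from the nearest start, with its summit 4.33 kb inside the gene, and the other was 1.2 kb from an alternative start that lies 94.6 kb inside. Upstream of the gene there were 2 further regions, at distances of 1.09 and 31 kb from the start, and there were 0 in the downstream flank.

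The EXT1 regions were spaced closely and were sparse in the surroundings. EXT1 held 63 regions per Mb, against 4.4 per Mb in the rest of the 5 Mb on either side (44 regions), 4.71 on the whole chromosome and 6.19 over the genome. The nearest region beyond the flanks was 87.2 kb away on the downstream side and 221 kb away on the upstream side. The 19 gaps between EXT1 regions ran from 2.04 to 33.1 kb, with a median of 8.88 kb. The median distance of an EXT1 region to its nearest neighbour was 6.17 kb, against 18 kb for all full-length regions. For GPC6 it was 9.95 kb. Spacing follows from the count and the length of the gene, on which EXT1 was chosen, and was not tested.

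Each region has a summit pileup, the number of fragments that cover its highest point in the pooled libraries, and a local background, the number the peak caller expected there. Joining neighbouring regions, with 8.88 kb as the widest gap joined and 15.7 kb as the narrowest left open, gave 10 groups along EXT1, 5 with several regions and 5 with a single one. The first group held 3 regions, with summits 4.33, 13.7 and 21.9 kb inside the gene and pileups of 35, 21 and 16 fragments. Single regions followed at 55.4 kb with 20 fragments and at 76.5 kb with 28 fragments. Apart from the first, these regions were at or below the median EXT1 pileup of 28.

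Pileups were higher in the middle of the gene. A group of 3 regions at 93.2, 100.3 and 107 kb had pileups of 29, 44 and 47 fragments, and a single region at 133 kb had 57. The next group, at 156, 162 and 171 kb, had pileups of 48, 21 and 20. A group of 4 regions at 188, 191, 198 and 202 kb had pileups of 28, 24, 35 and 67. These 11 regions spanned 109 kb, or 34.4% of the body, and carried 65.1% of the summed EXT1 pileup of 645 fragments. Their median was 35 fragments, against 24 in the other 9 regions, over median backgrounds of 4.79 and 2.95 fragments. Fold enrichments, defined further on, had similar ranges, 4.25 to 10.9 in the 11 regions and 5.27 to 10.2 in the other 9. AP-1 letters, described further on, were near 3 of these 11 summits and 4 of the other 9. The limits of this stretch were set after the values were seen.

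Toward the gene end the pileups were again lower, apart from that of the last region. A single region at 230.4 kb had 24 fragments, and a pair at 262 and 264 kb had 20 and 24. The region in intron 3, at 280.2 kb, had 37 fragments. The highest and the lowest EXT1 pileups were picked as extremes and lay over different backgrounds, so their difference was not tested. The highest, 67 fragments (95% Poisson limits 51.9 to 85.1) over a background of 5.23, was at positions 117909951 to 117910540 and ranked 107 in the list by pileup and 1105 by fold. The second, 57 fragments (43.2 to 73.9) over 5.45, was at positions 117978066 to 117978911. The lowest had 16 fragments (9.15 to 26) over 1.79.

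**Figure D2:**
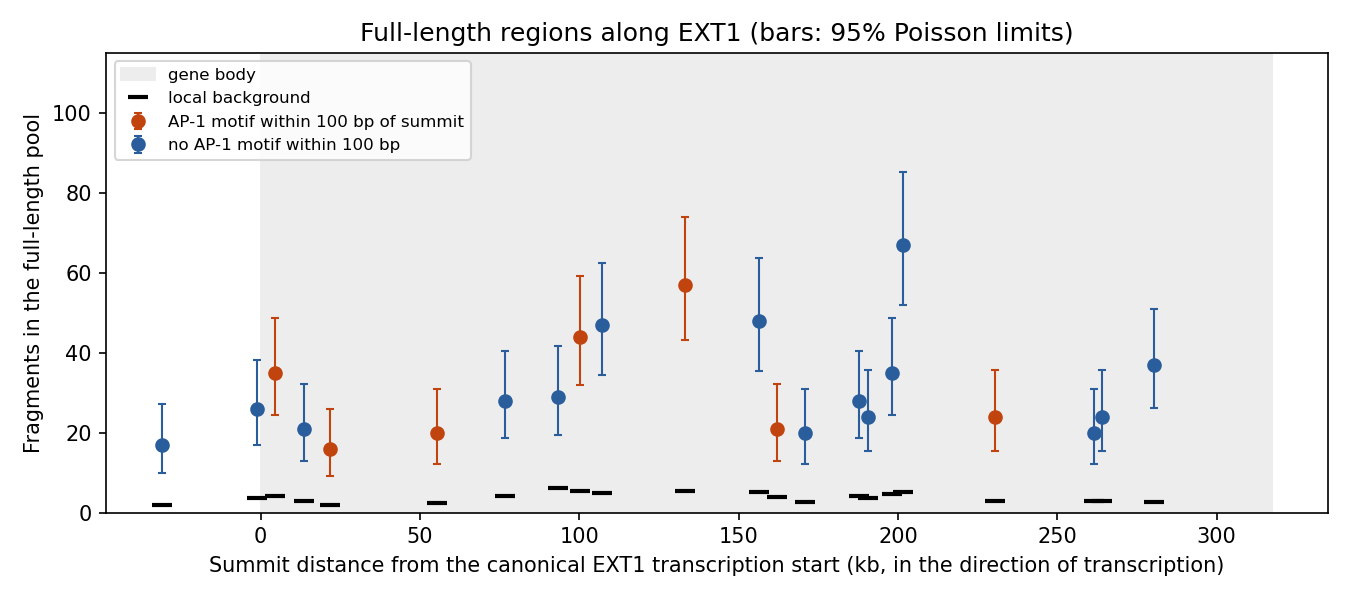
Summit pileup of each full-length region along EXT1 against distance from the canonical start in the direction of transcription, with 95% Poisson limits, in fragments of the pooled libraries. Black dashes give the local background, and red points have an AP-1 motif within 100 bp of the summit. Pileups were highest, at up to 67 fragments, between 93.2 and 202 kb, where the local background was also highest.

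EXT1 regions had more fragments and a higher local background than the list as a whole, and a lower fold enrichment. The fold enrichment is (pileup + 1)/(background + 1). The median EXT1 pileup was 28 fragments, with a range of 16 to 67, against a median of 20 for all full-length regions. The median EXT1 background was 3.97 fragments, with a range of 1.79 to 6.06, against 1.82 for all regions and 1.38 for the regions in the rest of the 5 Mb on either side. The background exceeded the median of the list in 19 of the 20 EXT1 regions. The median fold was 6.19, with a range of 4.25 to 10.9, against 7.36 for all regions. The 2 genes of similar length that followed EXT1 in number of regions also had median pileups and backgrounds above those of the list. Their median folds were below that of EXT1 in TRIO and near that of the list in LHFPL2. In TRIO the median pileup was 61.5 fragments, the median background 10.7 and the median fold 5.46, and in LHFPL2 they were 29, 3.21 and 7.34.

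The 2 measures therefore ranked EXT1 differently. By pileup, 11 of its 20 regions were in the upper 25% of the list, which with ties holds 26.1% of all regions. By fold, 3 of 20 were in the upper 25% and 15 of 20 were below the median of the list. The −log10 p-value, which uses both quantities, had a median of 15 in EXT1 and of 15 in the whole list. EXT1 regions thus had close neighbours and a raised background. Whether fragments of neighbouring regions entered the local background was not examined, so these are not shown to be separate traits. The part of either in the low fold was not tested.

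**Figure D3:**
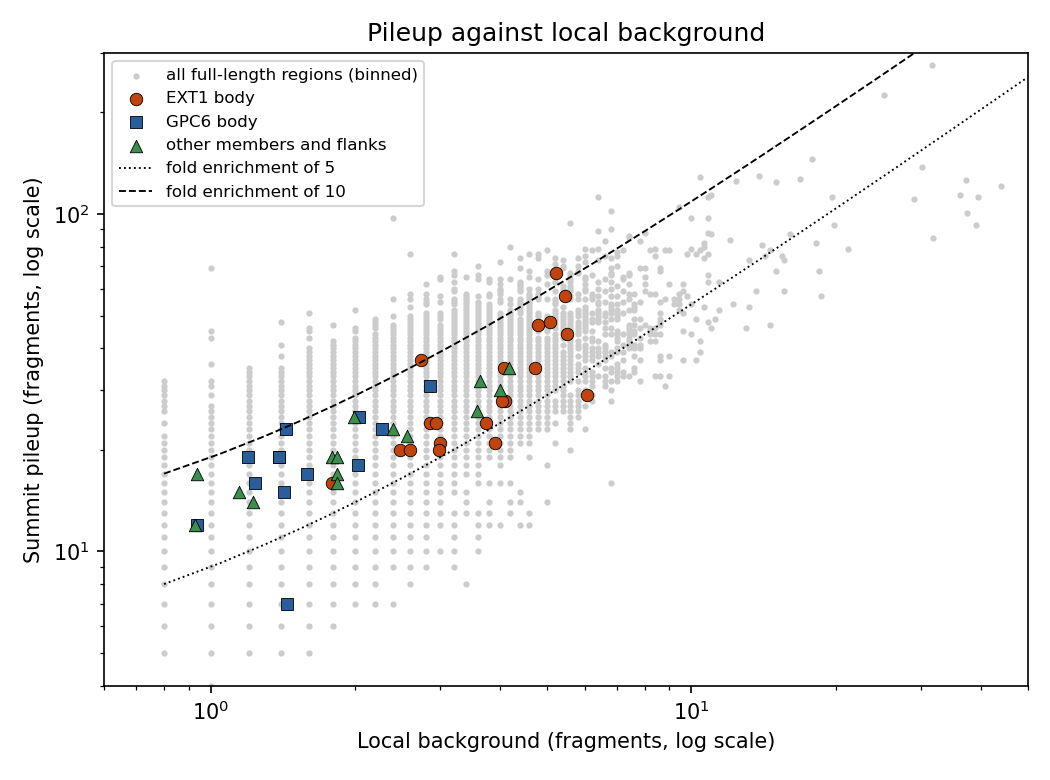
Summit pileup against local background, both in fragments on log axes, for the regions of EXT1 (circles), GPC6 (squares) and the other members and flanks (triangles), with all full-length regions in grey, binned to 0.2 fragments of background. Lines give fold enrichments of 5 and 10. EXT1 regions lie at backgrounds of 1.79 to 6.06 fragments, and most GPC6 regions lie to their left.

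AP-1, the dimer of JUN and FOS proteins, is active in stellate cells and binds the letters TGANTCA, which read the same on both strands up to the middle base. Such letters lay within 100 bp of the summit in 7 of 20 EXT1 regions (35%, 95% Wilson interval 18.1% to 56.7%). The share was 42% in all full-length regions and 50% in all those in introns, and both values are inside the EXT1 interval. Windows of the same length placed 1 kb from the summits held the letters in 2 of 40 cases for EXT1 (5%) and in 6.21% of cases for the whole list. The motif was thus more frequent at the EXT1 summits than beside them, without being more frequent than in other regions. Among all intronic regions with a background in the EXT1 range, a set defined after the values were seen, the share was 48.7%.

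In the 7 EXT1 regions with the letters, their middle base was 3 to 50 bp from the summit. In 3 further EXT1 regions the letters were inside the record but 105 to 116 bp from the summit. The EXT1 region with 67 fragments had none, and the one with 57 fragments had 1. The median pileup was 24 fragments in the 7 EXT1 regions with the motif and 28 in the 13 without it, a difference that was not tested. The 2 genes of similar length that followed EXT1 in number of regions had higher shares. In TRIO, a guanine nucleotide exchange factor, 12 of 18 regions held the motif (66.7%, 43.7% to 83.7%), and in LHFPL2 12 of 16 did (75%, 50.5% to 89.8%). Their intervals overlap that of EXT1. Both shares lay above its upper limit of 56.7%, and the EXT1 share of 35% lay below both intervals. Regions of 1 gene share their locus and their libraries, and the differences were not tested.

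Letters of other factors were no more frequent in EXT1 than in the full-length list as a whole. The TEAD letters GGAATG, on either strand, were within 100 bp of 2 EXT1 summits (10%), against 21.1% of all full-length regions. The RUNX letters TGTGGT were near 3 (15%), against 17.5%. None of the 3 motifs was found near 10 of the 20 EXT1 summits, against 38.2% of all summits. In the regions of the other 9 genes, 10 of 26 held the AP-1 letters (38.5%, 22.4% to 57.5%), 7 the TEAD letters (26.9%) and 5 the RUNX letters (19.2%).

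**Figure D4:**
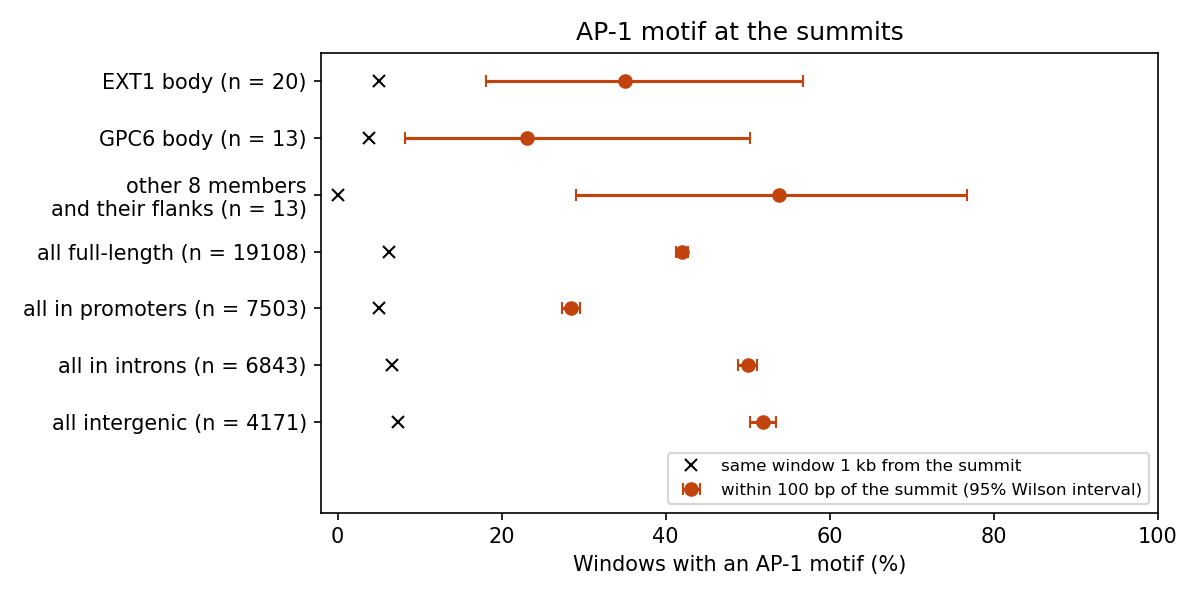
Percent of regions with an AP-1 motif within 100 bp of the summit, with 95% Wilson intervals, for the members and for all full-length regions by class. Crosses give windows 1 kb from the same summits. The EXT1 share of 35% has an interval that includes the 42% of all regions, and all crosses lie below 8%.

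The other 4 exostosin genes held 1 region in 352 kb of summed body. Such low counts were common, as the median over all protein-coding gene bodies was 0. Of the 3665 genes of at least 100 kb, which include EXT2 and EXTL3, 1426 had 0 regions. EXT2, the partner of EXT1 in the polymerase, had 0 regions in 156 kb. Its single flank region was 29.2 kb upstream, with a pileup of 12 fragments (6.2 to 21), and overlapped the start of ACCS. EXTL1, which adds N-acetylglucosamine during elongation, had 0 regions in its body. Its flank region, 21.6 kb upstream with 14 fragments (7.65 to 23.5), overlapped the start of PAFAH2. Both regions thus lay at the promoters of other genes. EXTL3, which starts the chain, had 0 regions in 156 kb and 0 in its flanks. The nearest region outside was 110.0 kb upstream, with 18 fragments.

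EXTL2, which can end chain growth on the linker sugar, had 1 region that overlapped its first exon and its transcription start. The region also overlapped another annotated gene. The pileup of the region reached 23 fragments (14.6 to 34.5) and its fold 7.06, at a background of 2.4. Its summit sequence is shown because it is the only exostosin region outside EXT1 that lies on a member's own start. It holds no AP-1 letters. The capitals mark TEAD letters, read on the minus strand, 12 bp from the summit.
EXTL2 exon 1, chr1:100894857-100894957, plus strand: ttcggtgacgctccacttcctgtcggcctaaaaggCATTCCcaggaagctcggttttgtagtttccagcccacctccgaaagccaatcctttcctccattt

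Among the syndecans, SDC4 had regions in its body and SDC1 in its flanks. SDC4, the syndecan of focal adhesions, carried 3 regions, all in intron 1, with summits 4.05, 10.5 and 11.6 kb inside the gene. Their summit pileups were 30 (20.2 to 42.8), 35 (24.4 to 48.7) and 32 (21.9 to 45.2) fragments. The 3 values differed by less than their counting error, and all were in the upper 25% of the list by pileup. The last 2 regions were 0.469 kb apart. Their backgrounds, between 3.63 and 4.18 fragments, were similar to those in EXT1, and their folds were 6.19 to 7.13. A further region was 6.82 kb upstream of the gene, with 22 fragments (13.8 to 33.3). The region at 4.05 kb was 1.24 kb from the annotated start of another gene.

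The sequences at the SDC4 summits are shown because the gene had the highest density and because 2 of its 3 regions held 2 copies of the AP-1 letters within 100 bp. The sequences reach 50 bp to either side of the summit, so 1 copy of each pair appears. Capitals mark the AP-1 letters, whose middle base was 42 bp after the first summit and 31 bp before the last. The region between them, the one with 35 fragments, had no AP-1, TEAD or RUNX letters within 100 bp. The first sequence also holds TEAD letters 17 bp and RUNX letters 2 bp before the summit, not shown in capitals.
SDC4, 4.05 kb inside, chr20:45344321-45344421, plus strand: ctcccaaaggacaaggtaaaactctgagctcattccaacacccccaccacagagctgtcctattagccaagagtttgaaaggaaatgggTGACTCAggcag
SDC4, 10.5 kb inside, chr20:45337907-45338007, plus strand: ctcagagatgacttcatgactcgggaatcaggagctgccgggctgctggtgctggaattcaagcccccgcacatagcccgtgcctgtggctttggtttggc
SDC4, 11.6 kb inside, chr20:45336747-45336847, plus strand: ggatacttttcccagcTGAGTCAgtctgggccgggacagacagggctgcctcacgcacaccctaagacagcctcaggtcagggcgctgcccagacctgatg

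SDC1, the main syndecan of epithelial cells and hepatocytes, had 4 regions, all intergenic and outside the body. One was 6.16 kb upstream of the start, with 17 fragments (9.9 to 27.2) and a fold of 9.29 at a background of 0.937. The other 3 were downstream, with summits 38.5, 39.3 and 58.3 kb from the start and pileups of 16, 19 and 15 fragments. All 4 pileups were below the list median of 20. GPC1, a glypican that binds fibroblast growth factors, had 2 upstream regions. The first was 1.2 kb from its start, with 19 fragments (11.4 to 29.7), and the second was 47.6 kb away, with 25 fragments (16.2 to 36.9). SDC2, a syndecan of fibroblasts, had 0 regions in a body of 118 kb, and the nearest was 91.6 kb upstream.

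The SDC1 and GPC1 flank sequences with AP-1 letters within 50 bp of the summit are shown for comparison with SDC4. Capitals mark the letters, which were 29, 9 and 37 bp before the summits.
SDC1 upstream region, chr2:20231665-20231765, plus strand: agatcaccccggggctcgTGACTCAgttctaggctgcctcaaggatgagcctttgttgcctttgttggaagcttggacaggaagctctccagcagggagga
SDC1 first downstream region, chr2:20186583-20186683, plus strand: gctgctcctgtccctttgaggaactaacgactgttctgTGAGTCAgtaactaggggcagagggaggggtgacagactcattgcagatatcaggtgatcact
GPC1 upstream region, chr2:240434223-240434323, plus strand: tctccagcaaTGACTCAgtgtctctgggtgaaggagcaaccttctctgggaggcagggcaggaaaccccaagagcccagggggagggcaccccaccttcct

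GPC6, a glypican of mesenchymal cells and the longest member, carried 13 regions, all in introns. Their density was low and uneven. Intron 1, of 318 kb, held 3 regions, with summits 22.9, 36.1 and 43.2 kb inside the gene and pileups of 18, 23 and 16 fragments. A stretch of 289 kb without a region followed. Single regions at 333, 635, 737 and 895 kb had pileups of 23, 25, 17 and 19 fragments. The last 6 regions lay between 1013 and 1125 kb, with pileups of 12, 19, 7, 31, 15 and 19. Intron 6, of 76.3 kb, held 3 of these and had the highest density, 3.93 regions per 100 kb. There were 0 regions within 3 kb of a GPC6 start.

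GPC6 regions were weaker than those of EXT1 by pileup and not by fold. Their median pileup was 19 fragments, with a range of 7 to 31, and 4 of 13 exceeded the list median. Their median background was 1.43 fragments, against 3.97 in EXT1, and their median fold was 7.6, against 6.19. The region with the highest GPC6 pileup, 31 fragments (21.1 to 44), was in intron 6. The lowest, 7 fragments (2.81 to 14.4) with a −log10 p-value of 3.89, was 115 bp from the end of its neighbour. It still had the highest score of 1000, which 33% of all full-length regions had. AP-1 letters were near 3 of the 13 summits (23.1%, 8.18% to 50.3%), TEAD letters near 4 and RUNX letters near 4.

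The GPC6 summits with AP-1 letters within 50 bp, and the summit with the most fragments, are shown because they contrast regions with and without the motif in the same gene. In the first 2, capitals mark the AP-1 letters, 19 bp before and 25 bp after the summit. Both also hold TEAD letters, 11 and 6 bp before the summit. In the last, which holds no AP-1 letters in this window, capitals mark TEAD letters 40 bp after the summit.
GPC6 intron 1, chr13:93249696-93249796, plus strand: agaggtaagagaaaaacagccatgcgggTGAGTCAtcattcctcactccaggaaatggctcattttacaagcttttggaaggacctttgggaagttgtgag
GPC6 intron 4, chr13:94121864-94121964, plus strand: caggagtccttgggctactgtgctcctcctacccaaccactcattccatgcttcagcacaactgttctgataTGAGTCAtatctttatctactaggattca
GPC6 intron 6, chr13:94310507-94310607, plus strand: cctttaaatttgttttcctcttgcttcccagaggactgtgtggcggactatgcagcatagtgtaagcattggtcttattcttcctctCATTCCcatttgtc

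**Figure D5:**
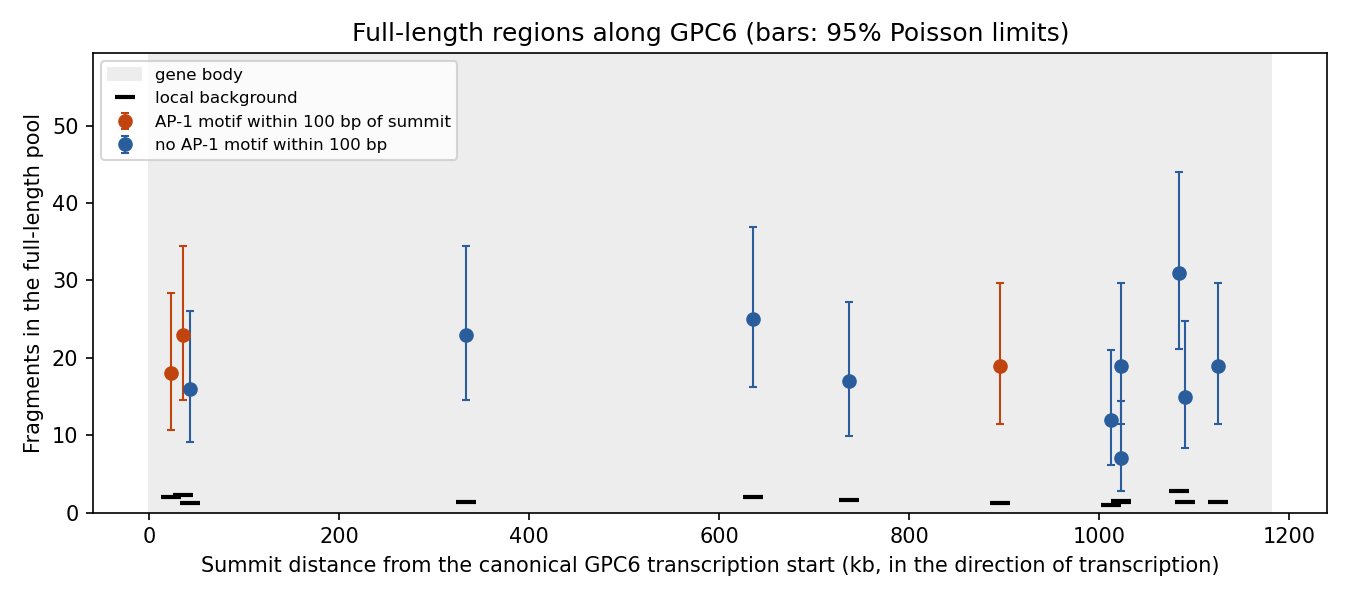
Summit pileup of each full-length region along GPC6 against distance from the canonical start, with 95% Poisson limits, in fragments of the pooled libraries. Black dashes give the local background, and red points have an AP-1 motif within 100 bp of the summit. Of the 13 regions, 3 lie near the start and 6 between 1013 and 1125 kb, with 4 single regions between them, and pileups range from 7 to 31 fragments.

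The remaining genes of the pathway were examined from a list of 36 linker, sulfation, remodelling and core protein genes. Of these, 14 had a full-length region in the body (38.9%), near the 33.7% of all genes, and they held 20 regions together. NDST1, which starts sulfation of the chain, had 4 regions with pileups of 19 to 32 fragments. TGFBR3, the transforming growth factor beta co-receptor betaglycan, had 3, with pileups of 20 to 24. SRGN, an intracellular proteoglycan core, had 2, with pileups of 17 and 23. The other 11 genes, among them the linker enzyme B3GAT3 and the basement membrane core COL18A1, had 1 each. These counts were below the 20 of EXT1, which was chosen for its count. By density the order of these named genes differed. B3GAT3 had 14.6 regions per 100 kb, from 1 region in 6.86 kb, and SRGN 12, from 2 in 16.7 kb. NDST1 had 5.53, TGFBR3 1.33 and COL18A1 0.921, against 6.3 in EXT1, from 20 regions in 317 kb.

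By role, 3 of 6 linker enzymes, 3 of 5 genes of N-sulfation and epimerization, and 2 of 11 O-sulfotransferases had a region. So did 1 of 4 remodelling enzymes and 5 of 10 other core proteins. The dZF list, of 54 regions, had 0 in the bodies of these 36 genes. Among all protein-coding genes, 0.21% had a dZF region in the body or within 50 kb.

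The dZF list was compared at the same positions. It had 0 regions in the 10 genes and their 50 kb flanks, and 0.21% of all genes had a dZF region within 50 kb. As a measure of depth, the lowest local backgrounds of the lists were 0.865 (full-length) and 0.625 fragments (dZF), a ratio of 1.38. With member pileups and backgrounds divided by this ratio, 44 of the 48 (91.7%) remained past 7.62, the −log10 p-value of the weakest dZF record, as did 85.3% of all full-length regions. In EXT1, 19 of 20 did. Only 2 of the 48 exceeded the dZF median of 22. At a depth ratio of 2, 28 of the 48 were past the weakest dZF record. The reproducibility filter behind each list could not be recomputed at the scaled depth. All 48 regions were picked from the full-length list, and the part of depth in their absence from the dZF list was not tested.

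At the edge of the rule, the region farthest from a body inside the 50 kb limit was the GPC1 region at 47.6 kb. The nearest ones outside were 51 kb downstream of SDC1, with 10 fragments and a fold of 5.16, and 61.1 kb from EXTL1 and from GPC1, with 19 and 21 fragments.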

How the data were processed

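CUT&RUN with an antibody against ZNF469 was performed on 6 LX-2 libraries in 2 groups of 3. The authors deposited 1 peak list per group, on hg38, that pools the libraries and holds the records kept by an irreproducible discovery rate filter. The submitters' processing notes name Bowtie2 2.3.4.3 and MACS2 2.2.5. The deposited columns used were the fold enrichment (a ratio), the −log10 p-value, the score (a rescaled reproducibility value) and the summit offset, and the q-value column was not used. Total reads per library were not analysed here.

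The pileup, a count of fragments, and the local background were solved from fold = (pileup + 1)/(background + 1) and the Poisson tail. A whole pileup met 100% of records of both lists within 1e-04 in −log10 p. On simulated records 100% of 291 whole pileups were recovered. Poisson (pileups) and Wilson (shares) 95% limits cover counting error only.

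Gene bodies, starts and classes (promoter within 3 kb of a start, then exon, intron and intergenic) came from GENCODE version 44, with 1 body per gene symbol, and sequences from the hg38 genome. Motifs were searched on both strands within 100 bp of the summit. No sequence from EXT1, EXTL3 or SDC2 is reported here. Sequences of 50 bp on either side of the summit were taken, for members with a body region, at the highest pileup with AP-1 letters within 50 bp, or else at the highest pileup (3 of 10 printed), and 7 were added after the values were seen. Genes named were the 10 members, the 5 other heparan sulfate genes with the most regions (ties in alphabetical order), genes whose start was within 3 kb of a flank region, and the 3 genes with the most regions at 0.8 to 1.25 times the length of EXT1. The members and lists were chosen with earlier results of these data known. Python 3.11, pandas 2.3.3 and scipy 1.17.1 were used. No test between groups was made, because values per library were not analysed here. Alternatives varied the flank, the overlap, the motif window and letters, the joining distance, the depth ratio and the stringency of the list.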

Additional observations from a re-analysis of the deposited data

How the results depend on the processing

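Across 45 alternatives to the 10 results, 22 left the value within 1.5 times (counts) or within its interval or quartiles (shares and medians). No paired analysis was possible because the lists give no value for single libraries, and no library could be left out in turn for the same reason. Stringency moved the counts by construction. In the upper 50% by fold, the upper 25% by fold and the upper 25% by pileup, member regions numbered 15, 7 and 15, EXT1 regions 5, 3 and 11, and other heparan sulfate genes with a region 8, 3 and 2. The EXT1 groups numbered 5 and 3 in the first 2 of these settings, 17 with a joining distance of 5 kb and 5 with 25 kb. The EXT1 median pileup rose to 48 and 57 fragments and the median fold to 8.99 and 10.2 in the upper 50% and 25% by fold. The AP-1 share of the other members was 57.7% within 250 bp of the summit, 61.5% over the whole record and 75% in the upper 25% by fold. The EXT1 AP-1 share ran from 20% to 50% over its alternatives. With 50 kb added to each body, 23 of the 36 other heparan sulfate genes had a region, beside 65.1% of all genes for the same interval. After depth scaling, 2 member regions were past the −log10 p-value of the median dZF record, and at a depth ratio of 2, 28 were past the weakest. Depth limits single regions: a pileup of 20 fragments has Poisson limits of 12.2 to 30.9. The spread between libraries was not measured, so no error can be given for the medians.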
